A study of Mus musculus with 35 samples.

Results

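The regions described here are the peaks of 10 transcription factors that the authors' annotation places on a long interspersed nuclear element (LINE). They come from 17 chromatin immunoprecipitation sequencing (ChIP-seq) peak lists of mouse stromal adherent pre-B cell progenitors, and a peak was a member if its detailed annotation gave the repeat class LINE. The rule used no measured value. It took 74298 of the 537489 factor peaks, 13.8% (exact 95% Clopper-Pearson interval 13.7 to 13.9%), and the 33 peak lists of the whole series hold 1213505 peaks. IKDN cells came from mice labelled IKDN CD2 Cre, which carry a dominant-negative allele of the zinc finger protein Ikaros and a Cre recombinase under the lymphoid CD2 promoter. They gave 9 lists, for Aiolos, E2A, EBF1, PAX5, IRF4, ETS1, TEAD1, LHX2 and LMO2. Wild-type (WT) cells came from mice labelled WT and gave 8 lists, for the same first 7 factors and for Ikaros. Both kinds of culture were at passages 3 to 8, and the number and age of the mice are not given in the sources used here. With 1 library for each genotype and factor, no difference could be set against the variation between cultures and no test was made. All intervals are exact 95% intervals and hold counting error only.

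LINEs are retrotransposons that copy themselves through RNA, and the L1 family makes up most of those in the mouse genome. Full-length L1 copies carry a promoter at their 5' end, and most copies are cut short there. Subfamilies named L1Md arose in the mouse lineage and include those still able to move, the Lx group arose in rodents, and the L1M and L2 groups are older elements that mammals share. PAX5, EBF1 and E2A set up and keep B cell identity, and Ikaros and its relative Aiolos act with them. IRF4 and ETS1 also serve lymphocyte development. TEAD1 is the DNA-binding partner of YAP in the Hippo pathway, LHX2 is a LIM homeodomain factor, and LMO2 is an adaptor that joins complexes of E2A-type proteins. Copies of the younger subfamilies are nearly identical to each other, and how reads that align to several copies were treated is not given in the sources used here. Their positions, and the number of their peaks, are uncertain for this reason.

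3 lists were incomplete. The WT E2A list held no peaks on chromosomes 3 to 9 and X and only part of chromosome 2. Chromosome 2 was missing from the WT ETS1 list, and X and part of chromosome 9 from the IKDN PAX5 list. Shares, classes, element counts, score ranks and positions of single lists use all of their peaks on the 21 chromosomes. Overlaps between lists and the comparison of IKDN with WT shares use only chromosomes complete in both. The antibody labels name 1 catalogue entry for the PAX5 and IRF4 lists of both genotypes and the IKDN E2A list, and another for the WT E2A, IKDN ETS1 and IKDN LHX2 lists. By these labels E2A and ETS1 have different entries in IKDN and WT cells, and the other 5 factors with both genotypes have the same entry in both. An entry that stands for several target proteins may be a labelling error, so this grouping is uncertain. Acetylation of histone H3 at lysine 27 (H3K27ac), a mark of active promoters and enhancers, lay within 2500 bp of the start of 17 of 28 B lineage genes in IKDN cells and 21 in WT cells, Igll1 and Blnk among them in both. It did so for 8 and 12 of 20 stromal fibroblast genes, 7 and 8 of 20 T cell genes, and 7 and 7 of 20 myeloid genes. Of the T cell list, the receptor and co-receptor genes Cd3e, Cd4 and Cd8a had no such peak in either genotype, and Lck, Lat, Zap70, Tcf7, Cd28 and Thy1 had one in both. Of the B lineage list, Cd79a, Blk, Rag1 and Rag2 had one in WT cells only. Of the stromal list, the collagen gene Col1a1 and Pdgfrb, Prrx1, Acta2, Cxcl12, Thy1 and Lox had one in both genotypes. Col3a1, Pdgfra, Mmp2, Twist1 and Fn1 had one in WT cells only, and Twist2 in IKDN cells only. The share over all genes is not given here. The part of such other cells in the LINE peaks was not tested.

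Few LINE peaks lay at gene starts, and 46 had their centre in a promoter window. The number for all factor peaks is not given here, so no contrast with other peaks is drawn. Of 32815 promoter windows in RefSeq (GRCm38.p6, from 250 bases before the start site to 50 after it), 22 held the centre of a LINE peak, and 5 of them did so in 3 or more lists. The promoter windows of 3 such genes are shown because each stands for another age of element. They are given 5' to 3' on the strand of the gene, and capitals mark matches to the motifs searched on both strands.
Gm32196, chr16:25178080-25178379, minus strand, Lx8: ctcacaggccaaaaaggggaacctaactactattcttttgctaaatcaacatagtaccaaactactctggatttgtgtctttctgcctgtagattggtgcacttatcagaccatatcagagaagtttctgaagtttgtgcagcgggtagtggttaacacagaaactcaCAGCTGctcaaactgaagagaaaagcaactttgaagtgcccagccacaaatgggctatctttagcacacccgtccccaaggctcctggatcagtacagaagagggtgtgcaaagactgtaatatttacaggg
Gm31619, chr2:167589432-167589731, minus strand, L2a: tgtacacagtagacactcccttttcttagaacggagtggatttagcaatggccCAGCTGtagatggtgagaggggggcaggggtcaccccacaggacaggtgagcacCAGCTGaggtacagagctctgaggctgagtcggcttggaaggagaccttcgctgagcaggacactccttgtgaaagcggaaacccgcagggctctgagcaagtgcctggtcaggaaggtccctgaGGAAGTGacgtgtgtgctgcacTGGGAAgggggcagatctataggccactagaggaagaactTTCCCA
Ccr1l1, chr9:123986666-123986965, minus strand, L1Md_T: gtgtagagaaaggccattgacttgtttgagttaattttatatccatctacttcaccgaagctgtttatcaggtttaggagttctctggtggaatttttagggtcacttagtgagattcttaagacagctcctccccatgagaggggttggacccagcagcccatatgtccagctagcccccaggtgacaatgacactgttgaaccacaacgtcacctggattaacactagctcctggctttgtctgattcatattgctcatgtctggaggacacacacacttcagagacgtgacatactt
The Lx8 window of the predicted gene Gm32196 held a LINE peak centre in 11 lists, 5 of IKDN and 6 of WT cells, with score percentiles between 5.05 and 97.2 within their lists. Its single match is CAGCTG, an E-box of the kind that E2A binds, which 16.3% of all promoter windows hold. The L2a window of Gm31619 held a peak centre in 5 lists, for EBF1 and PAX5 in IKDN cells and for EBF1, IRF4 and Ikaros in WT cells. It holds CAGCTG at 2 places, the Ikaros core TGGGAA at 2 places (25.6% of promoter windows) and the ETS-type GGAAGTG at 1 place (11% of promoter windows). The Ccr1l1 window, at a chemokine receptor-like gene, lies on a young L1Md_T copy and held ETS1 peaks of both genotypes and a WT TEAD1 peak. None of the motifs searched matches in it. The other motifs were CCCNNGGG for EBF1, GCGTGAC for PAX5, GAAACTGA for IRF4, CCGGAA for ETS1, GGAATG for TEAD1, TAATTA for LHX2 and TGACTCA for AP-1 factors, and a match or its absence describes letters only. Sequences at the other LINE peaks were not analysed here.

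PAX5 supplied most of the LINE peaks. Its 2 lists held 46266 of them, 62.3% of all members. On the 19 autosomes, X and Y, 24.7% of IKDN PAX5 peaks and 30.1% of WT PAX5 peaks lay on a LINE. LINE peaks were rarest for IKDN E2A, at 2.67%, and IKDN LMO2, at 3.21%. Ikaros in WT cells had 4.67% and LHX2 in IKDN cells 6.59%. The median over the 17 lists was 8.49%. In the top-scored 50% of peaks the PAX5 shares were higher, at 30.9% in IKDN and 39.1% in WT cells. Those of ETS1 were lower, at 2.51% and 4.38%, those of Aiolos were 7.12% and 7.22%, and those of TEAD1 5.55% and 8.85%. WT E2A had 7.6%. At least 2500 bp from a start site the WT ETS1 share was 21.3%. The 16 lists of histone marks, MED1 and RNA polymerase II had between 0.88% (IKDN H3K4me3) and 17.7% (IKDN H3K27me3), with a median of 4.48%. H3K27me3 is the Polycomb mark of silent chromatin, and its share in WT cells was 17.5%. In 11 of the 17 factor lists, more peaks lay on LINEs than on long terminal repeat elements.

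**Figure D1:**
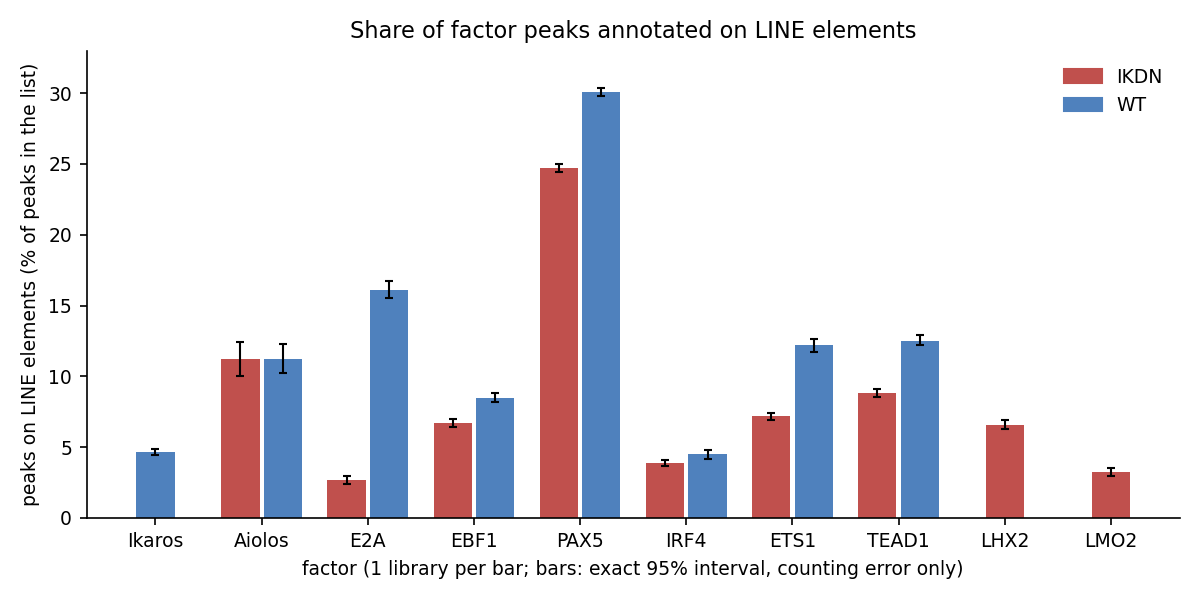
Share of the peaks of each factor that lie on a LINE element, in percent of the peaks in the list, with IKDN bars left of WT bars and exact 95% intervals for counting error. PAX5 stands highest in both genotypes, at 24.7% in IKDN and 30.1% in WT cells, and E2A differs most between them. The WT E2A, WT ETS1 and IKDN PAX5 lists lack chromosomes.

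The family L1 held 71495 of the LINE peaks on the 21 chromosomes, 96.5%, and L2 held 2.72%. The rest were 489 peaks on CR1, 106 on RTE-X and 18 on RTE-BovB elements. Within these families 150 element names occurred. Young L1Md elements held 57% of the LINE peaks, murine and rodent L1 such as L1_Mus3 18.9%, the Lx group 10.6% and older L1M and L1P elements 7.81%. Without the PAX5 lists the L1Md share was 49.4%. Names that fit no group, such as L1_Mm, made up 1.79%.

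The lists differed in the age of the elements that led them. L1Md elements held 83% of the LINE peaks of WT ETS1, 80.9% of WT E2A, 69.2% of IKDN ETS1 and 66.7% of WT TEAD1. For PAX5 the share was 61.1% in IKDN and 62.1% in WT cells, and for TEAD1 in IKDN cells 50.8%. It was lowest for IKDN LMO2, at 6.45%, and IKDN IRF4, at 6.96%. IKDN E2A was also low, at 14.8%, far from its WT value. In these lists and in WT IRF4 older elements led. L1M and L1P held 34.5% of the LMO2 and 35.3% of the IKDN IRF4 LINE peaks, and L2 held 15.7% and 10.8%. For IKDN E2A L1M and L1P held 30.7%, with the Lx group close at 26%, and L2 held 13.4%. For WT IRF4 L1M and L1P held 29.8%, with the Lx group close at 27.2%, and L2 held 7.82%. The Lx group held 37.3% of the EBF1 LINE peaks in IKDN and 31.7% in WT cells, the highest values of the factor lists. IKDN IRF4 followed with 29.2% (26.6 to 31.9%), which overlaps the interval of WT EBF1 (29.8 to 33.7%), and the H3K27ac lists had 36.1% in IKDN and 35.6% in WT cells.

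**Figure D2:**
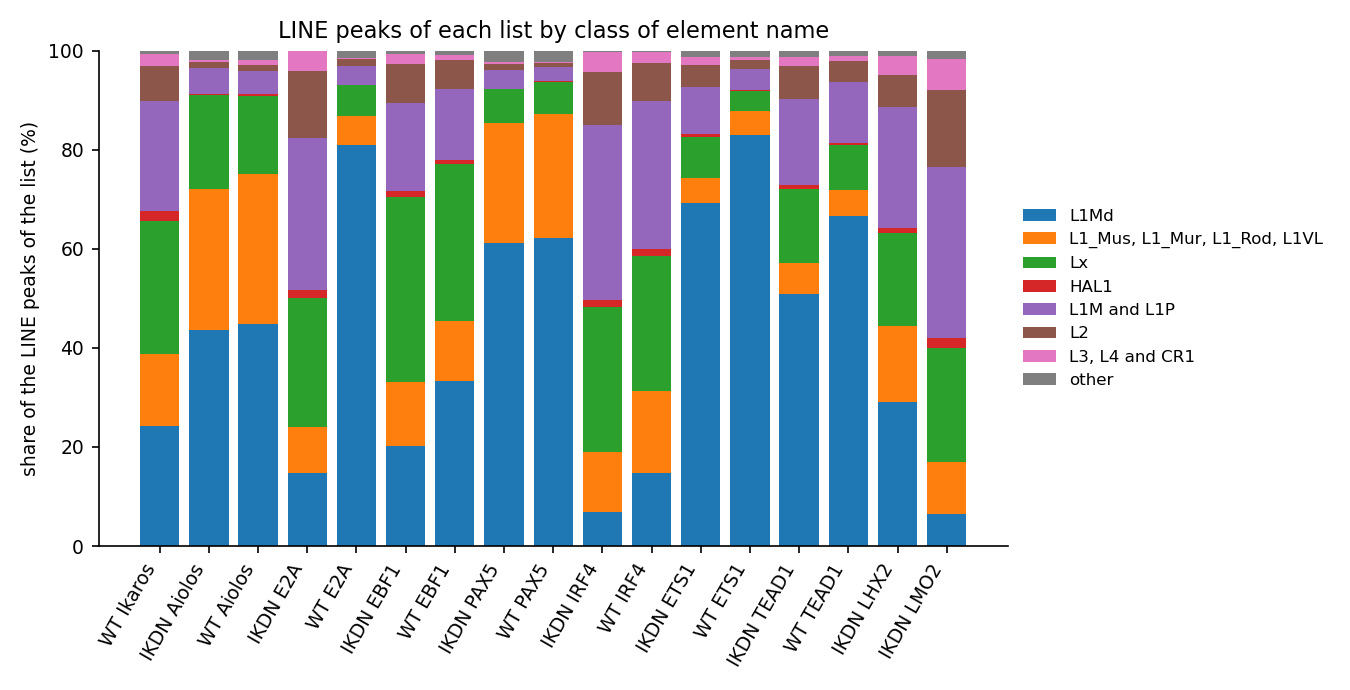
Composition of the LINE peaks of each list by class of element name, in percent of the LINE peaks of the list, with IKDN left of WT for each factor. L1Md, the lowest segment, fills 83% of the WT ETS1 bar and 6.45% of the IKDN LMO2 bar.

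The lists also differed in which L1Md subfamily came first. L1Md_F2 led in the PAX5 lists, with 5757 peaks in IKDN and 6780 in WT cells, followed by L1Md_T with 3150 and 3588 and L1Md_A with 2401 and 2869. The IKDN counts leave out X and part of chromosome 9, so only the order within a list can be read from them. L1Md_F2 also led for Aiolos, with 60 IKDN and 90 WT peaks, for LHX2 with 226 peaks and for Ikaros with 168. In these lists L1Md_F2 outnumbered L1Md_T between 1.35 times (Ikaros) and 3.6 times (WT Aiolos). The order was turned round for ETS1, TEAD1 and EBF1, where L1Md_T led in both genotypes. ETS1 had 722 peaks on L1Md_T and 356 on L1Md_F2 in IKDN cells, and 907 and 540 in WT cells. For TEAD1 the counts were 831 and 516 in IKDN cells, and 1122 and 747 in WT cells. WT E2A followed the ETS1 order, with 759 peaks on L1Md_T, 587 on L1Md_F2 and 563 on L1Md_A. Among the older elements Lx8 was the most frequent name for LMO2, with 39 peaks, and for IKDN E2A, with 36, and Lx7 and Lx8 tied for IKDN IRF4, with 63 each.

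Peak scores, whose scale is not stated and which are used here only within a list, placed LINE peaks in the weaker part of most lists. The median score percentile of LINE peaks was below 50 in 13 of the 17 lists, and lowest for ETS1, at 24.2 in IKDN and 29.5 in WT cells. The exceptions were PAX5, at 61.5 and 63.8, and IRF4, at 57.3 and 53.8. Among peaks at least 2500 bp from a start site the WT IRF4 median was 48, and 14 lists were below 50. For PAX5 it was the L1Md peaks that ranked high, with a median of 68.1 in IKDN and 70.8 in WT cells. LINE peaks made up 27.2% of the top-scored 10% of IKDN PAX5 peaks and 40.1% of the top-scored 10% of WT PAX5 peaks. For IRF4, L1Md peaks had medians of 31 and 37.6 while the other LINE peaks had 57.3 and 59.4. L1Md peaks of ETS1 had medians of 20.4 in IKDN and 24.8 in WT cells, the weak end of those lists.

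A pair of loci stood out among the top-scored LINE peaks, and all lists were read at both after their ranks were seen. An L1Md_T copy at chr13:9834173-9834635, intergenic and 69 to 69.2 kb from the start of Zmynd11, a reader of modified histone tails, carried a peak in 8 of the 17 factor lists. They were E2A, PAX5, IRF4 and ETS1 in both genotypes, and the percentile was between 99.1 and 100 in each. The labels of these 8 lists and of IKDN LHX2 name 3 antibody entries that no other list has. The single mark list with a peak there was WT H3K4me2, at percentile 76. The other locus was an L1MEd element at chr1:152528877-152529107, in intron 14 of 17 of NM_016846, with Rgl1, a Ral guanine nucleotide exchange factor, as its nearest gene. It held the top LINE peak of WT Ikaros and of IRF4 in both genotypes, each at percentile 99.9, and 16 of the 17 factor lists had a peak there. The exception was IKDN PAX5. In contrast to the L1Md_T copy, it also had peaks in 10 mark lists, H3K27ac and MED1 of both genotypes among them.

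LINE peaks lay far from transcription start sites. Their median distance to a transcription start site was between 36.7 kb (IKDN LMO2) and 126 kb (WT E2A), against 7.34 to 31.3 kb for all peaks of a list. Between 61.5% and 87% of them were intergenic, against 35.4 to 54.1% of all peaks, and L1Md peaks were the most often intergenic, at 71.9 to 90.2%. Introns held between 13% and 38.5% of LINE peaks, against 26.4 to 44% of all peaks. Chromosome X, which is rich in L1, held between 2.19% and 38.3% of LINE peaks in the 15 lists that cover it, against 1.13 to 9.95% of all peaks. Aiolos marked the upper end in both genotypes: 119 of its LINE peaks in IKDN cells lay on X, 38.3%, and 144 in WT cells, 36.8%. All Aiolos peaks had 9.95% and 9.08% there. The WT PAX5 list had 3146 LINE peaks on X, 12.7%.

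In IKDN cells a smaller share of the peaks of each paired factor lay on LINEs than in WT cells, on chromosomes complete in both lists. Aiolos had 11.2% in both genotypes (difference −0.0309 percentage points), within its interval of 10 to 12.4% in IKDN cells. The contrast was widest for E2A, with 2.88% (interval 2.53 to 3.28%) in IKDN and 15.9% (15.3 to 16.5%) in WT cells, over the 11 chromosomes complete in the WT list. ETS1 had 7.18% (6.9 to 7.47%) in IKDN and 12% (11.6 to 12.5%) in WT cells. The antibody entries differ between the genotypes for both, and their part in these contrasts was not tested.

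Among factors with the same antibody entry in both genotypes, TEAD1 had the widest gap. It had 8.75% (8.5 to 9.01%) on LINEs in IKDN and 12.4% (12.1 to 12.8%) in WT cells. PAX5 had 24.5% (24.2 to 24.8%) in IKDN and 27.8% (27.5 to 28.1%) in WT cells. EBF1 had 6.7% and 8.47%, and IRF4 3.89% and 4.49%, with IRF4 intervals of 3.67 to 4.12% and 4.19 to 4.81% that lie just apart.

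The contrast was wider for the young elements, though only slightly so for PAX5 and Aiolos. The L1Md share of peaks was lower in IKDN for all 7 factors, with an IKDN to WT ratio of 0.0275 for E2A, 0.408 for IRF4, 0.473 for EBF1, 0.502 for ETS1, 0.535 for TEAD1, 0.872 for PAX5 and 0.974 for Aiolos. For the other LINE elements the ratio was between 0.802 (E2A) and 1.05 (ETS1), lower in IKDN for 4 of the 7 factors. It was 0.894 for PAX5 and 1.02 for Aiolos. E2A had 28 L1Md peaks in IKDN and 1816 in WT cells, and 203 and 451 on other LINEs. TEAD1 had 2103 and 2757 L1Md peaks, and 2069 and 1394 on other LINEs. The WT E2A list was the longer one for E2A on these chromosomes, while the IKDN lists of EBF1, IRF4, ETS1, TEAD1 and PAX5 were longer. With equal numbers of top-scored peaks the L1Md ratio was 0.0559 for E2A, 0.226 for ETS1, 0.269 for IRF4, 0.301 for EBF1, 0.357 for TEAD1 and 0.973 for PAX5. For Aiolos it was 1.32, so its direction turned, as did that of its whole LINE share, with a ratio of 1.2. With equal numbers the ratio for other LINE elements was 0.894 for PAX5 and 1.12 for Aiolos, below their L1Md ratios. For the remaining factors it was between 0.86 (ETS1) and 1.06 (E2A), above their L1Md ratios.

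By name, the lowest ratios of IKDN to WT counts differed between factors. For E2A they were L1_Mm, with 0 and 37 peaks, L1Md_F3, with 1 and 102, and L1Md_A, with 6 and 477. L1Md_F2 was among the 3 lowest for Aiolos (60 and 90), EBF1 (94 and 149), IRF4 (46 and 70), ETS1 (336 and 537) and TEAD1 (512 and 741). For PAX5 none of the 3 lowest was an L1Md name: they were Lx4B (10 and 13), Lx3A (19 and 23) and L1_Mur1 (36 and 43). The highest ratios fell on L3 for EBF1 (25 and 10) and IRF4 (27 and 9) and on L1MCa for PAX5 (21 and 10). They fell on L2c for ETS1 (19 and 4) and Lx10 for TEAD1 (18 and 4). For E2A the highest was Lx8, with 24 and 37 peaks, and for Aiolos Lx, with 20 and 12. None of these names is L1Md. The ratios are of counts and do not allow for list length, which was 8008 IKDN and 14269 WT peaks for E2A.

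A peak was shared when at least 1 bp of it lay in a peak of that factor from the other genotype. LINE peaks of PAX5 were shared more often than all its peaks. Of its IKDN LINE peaks 87.4% were shared, against 69% of all IKDN PAX5 peaks, and of its WT LINE peaks 90%, against 80.7% of all. On L1Md elements 92.6% of IKDN and 94.4% of WT PAX5 peaks were shared.

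E2A showed the reverse. In IKDN cells 44.2% of its LINE peaks were shared, against 59.2% of all its peaks. In WT cells 4.37% were, against 33.2% of all, and 6 of the 1816 WT E2A peaks on L1Md, 0.33%, had an IKDN E2A peak. The labels give these 2 lists different antibody entries.

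For ETS1 and TEAD1 the share differed with the direction. Of IKDN LINE peaks of ETS1 50.4% were shared, against 47.2% of all, and of WT LINE peaks 44.2%, against 68.6% of all. For TEAD1 the shares were 41.9% against 39.1% of all in IKDN, and 41.6% against 55.7% of all in WT cells. Their WT L1Md peaks were shared in 43.7% of cases for ETS1 and 39.9% for TEAD1. In the top-scored 50% of the lists the IKDN LINE peaks of both factors were shared less often than all peaks, by -7.14 percentage points for ETS1 and -0.997 for TEAD1.

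EBF1, WT IRF4 and Aiolos had LINE shares below those of all peaks, and the interval of IKDN IRF4 held the share of all its peaks. EBF1 shared 52.9% of LINE peaks, against 57.3% of all, in IKDN cells and 54.2%, against 74.7% of all, in WT cells. IRF4 shared 37.7% (34.9 to 40.6%) of LINE peaks, against 39% of all, in IKDN cells and 53.6%, against 64.3% of all, in WT cells. The IKDN IRF4 difference of -1.3 points became 2.81 when 50% of both peaks had to overlap and 2.5 in the top-scored 50%. Aiolos shared few peaks of any kind: 10.6% of LINE peaks, against 16.7% of all, in IKDN cells and 8.7%, against 13.3% of all, in WT cells. In all, LINE peaks were shared less than all peaks in 10 of the 14 lists.

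**Figure D3:**
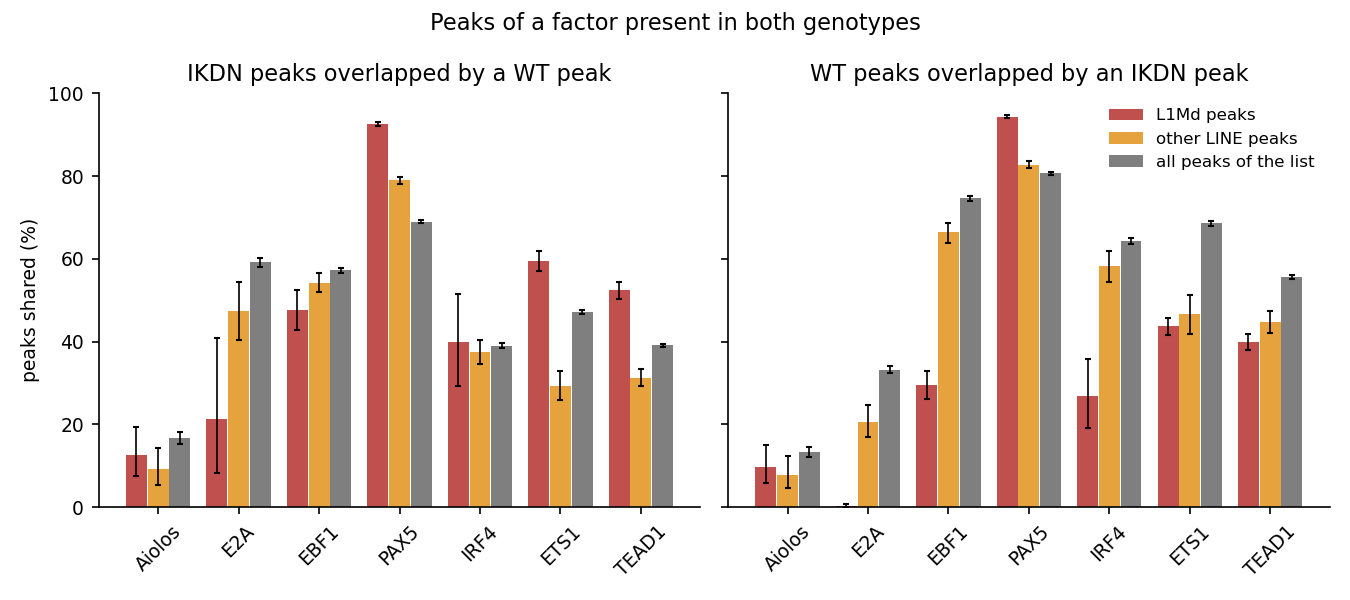
Share of the peaks of a factor that overlap a peak of the same factor in the other genotype, in percent, for IKDN peaks (left) and WT peaks (right), with exact 95% intervals for counting error. PAX5 is the factor whose L1Md peaks are shared more than all its peaks in both genotypes, and WT E2A peaks on L1Md are shared least, at 0.33%.

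H3K27ac peaks of the same genotype covered LINE peaks less often than all peaks in each of the 17 lists. In IKDN cells the shares of LINE peaks were 56.6% for E2A, against 76.4% of all E2A peaks, and 57.5% for LMO2, against 74.9% of all. LHX2 had 29.8%, against 59.9% of all, and IRF4 37.7%, against 68.1% of all. ETS1 had 16.8%, against 68.5% of all, EBF1 17.6%, against 36.8%, and TEAD1 13.8%, against 44.2%. Aiolos had 5.47%, against 53.9% of all. PAX5 came last, with 2.7% of 20942 LINE peaks, against 29.7% of all.

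In WT cells PAX5 was again lowest, and E2A stood far below its IKDN value. The shares of LINE peaks were 38.5% for IRF4, against 69.1% of all, and 35.3% for Ikaros, against 62.6%. EBF1 had 13.6%, against 37.5% of all, Aiolos 9.46%, against 52.3%, and ETS1 8.38%, against 70%. E2A had 7.23%, against 59.7% of all, TEAD1 5.59%, against 31.8%, and PAX5 2.09%, against 28%.

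The gap was widest on L1Md elements. At L1Md peaks H3K27ac was found at a median of 0.402% over the lists, and at most at 6.25% (IKDN LMO2, 2 peaks) and 6.03% (WT Ikaros, 29 peaks). The IKDN and WT Aiolos lists had none among 136 and 175 L1Md peaks. A count of 0, taken as fewer than 3 peaks, allows shares of up to 2.21% and 1.71%, and the exact intervals reach 2.68% and 2.09%. IKDN IRF4 had none among 80, which allows up to 3.75%, with an exact interval up to 4.51%. The other LINE peaks had a median of 35.5%, from 5.07% for WT PAX5 to 65.4% for IKDN E2A. By class, in lists with at least 50 peaks of it, the median was 61.3% for L2, 47.9% for L1M and L1P, 31.5% for Lx, 15.8% for murine and rodent L1 and 0.327% for L1Md. H3K4me1, a mark of enhancers, gave the same order of the first and last of these, with 79.2% for L2 and 2.38% for L1Md.

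**Figure D4:**
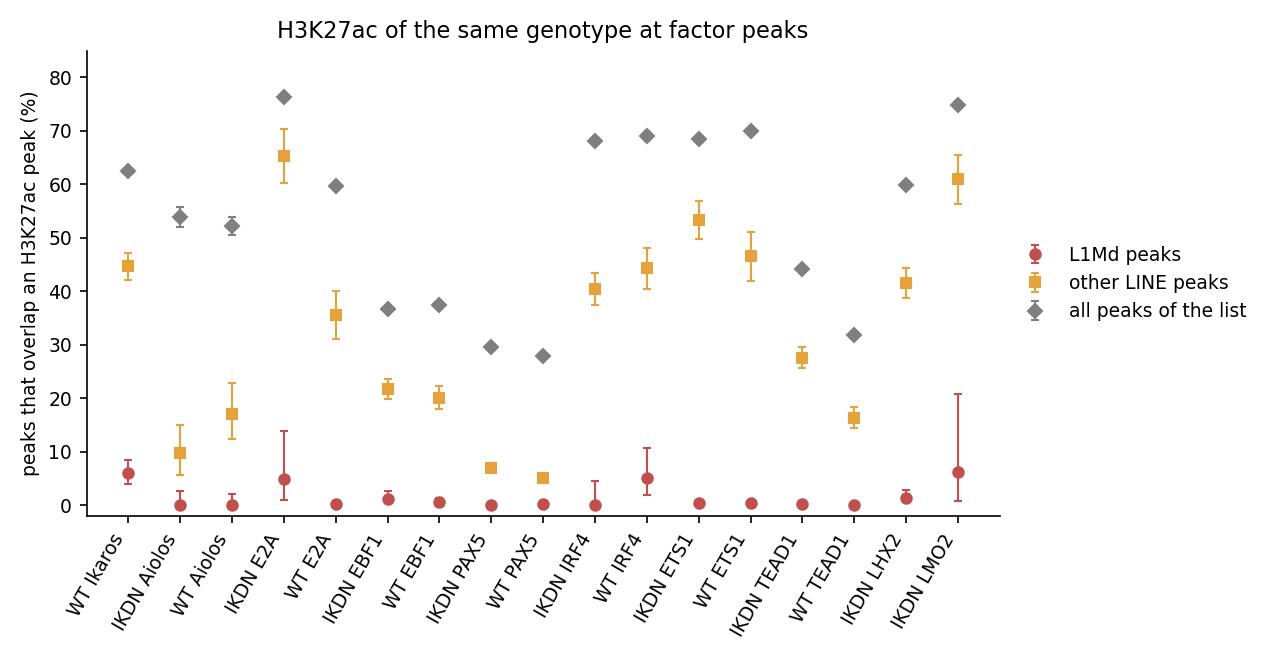
Share of peaks that overlap an H3K27ac peak of the same genotype, in percent, for L1Md peaks, other LINE peaks and all peaks of each list, with exact 95% intervals for counting error. L1Md peaks stay at or below 6.25% in each list, other LINE peaks reach 65.4%, and all peaks lie between 28 and 76.4%.

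MED1, RNA polymerase II and H3K4me3 followed H3K27ac, and a few lists departed in other ways. H3K4me1 covered a smaller share of LINE peaks than of all peaks in 14 of 17 lists. The others were IKDN E2A, with 73.9% against 71.3% of all, IKDN IRF4, with 58.7% against 57.3%, and WT IRF4, with 55.2% against 54.1%. MED1, a Mediator subunit, and RNA polymerase II covered a smaller share of LINE peaks than of all peaks in each of the 17 lists, and H3K4me3, the promoter mark, did so too. H3K27me3 covered 14.8% of IKDN Aiolos LINE peaks and 17.6% of its L1Md peaks, against 6.91% of all its peaks. In WT cells the Aiolos values were 2.3%, 1.71% and 5.14%. H3K27me3 also covered 5 of the 32 LMO2 peaks on L1Md, 15.6% (5.28 to 32.8%), against 3.27% of its LINE peaks and 2.77% of all LMO2 peaks. RNA polymerase II covered 12.8% of the L1Md peaks of IKDN EBF1, against 0.139% of those of WT EBF1. Over the 17 lists the median of RNA polymerase II at L1Md peaks was 0.588%.

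On L1Md elements the factors differed in whose peaks they met, with much crossing. With WT PAX5 88.6% of the 481 WT Ikaros peaks on L1Md overlapped, and with IKDN PAX5 91.8% of the 438 IKDN LHX2 peaks. For LMO2 it was 21 of 26 peaks, 80.8% (60.6 to 93.4%), against 68.4% of all LMO2 peaks. For all Ikaros peaks the share with PAX5 was 50.5%, and for all LHX2 peaks 49.4%. ETS1 and TEAD1 met each other, and in WT cells both also met E2A. Of IKDN ETS1 peaks on L1Md 48.5% overlapped an IKDN TEAD1 peak, against 37.3% of all ETS1 peaks. In WT cells 50.7% did so, against 23.3% of all. On 11 chromosomes, WT E2A overlapped 59.5% of the WT ETS1 peaks on L1Md, against 43.2% of all. It overlapped 53% of the WT TEAD1 peaks on L1Md, against 15% of all. WT ETS1 overlapped 43.8% of the WT TEAD1 peaks on L1Md, against 16.9% of all. PAX5 overlapped 35.2% of the IKDN and 27.8% of the WT ETS1 peaks on L1Md, against 60.2% and 61.4% of all ETS1 peaks. For TEAD1 it overlapped 37.3% in IKDN and 18.8% in WT cells, against 38.9% and 22% of all. With ETS1 the IKDN TEAD1 share on L1Md was 40.2%, against 27.8% of all. EBF1 peaks on L1Md met PAX5, ETS1 and TEAD1 alike in IKDN cells, with 19.5%, 20% and 19.3%. The shares of all IKDN EBF1 peaks were 27.3%, 18% and 21.3%. WT E2A peaks on L1Md overlapped WT TEAD1 in 34.4% and WT ETS1 in 32% of cases, against 18.6% and 36.6% of all E2A peaks. The list that shares its antibody entry with WT E2A, IKDN ETS1, overlapped 26.3% of the WT E2A peaks on L1Md, against 37.6% of all. IKDN LHX2, with that entry too, overlapped 1.43%, against 19.2% of all.

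Few LINE regions carried several factors, counted by their LINE peaks alone. Overlapping peaks with another annotation are left out of the LINE regions but not of the regions of all peaks. This can lower the factor counts of the LINE regions, so the shares below are not like for like. On the 11 chromosomes complete in all lists, overlapping LINE peaks merged into 18074 regions. At least 2 factors occupied 18.1% of them (17.6 to 18.7%), against 33.3% of the 107012 regions merged from all peaks, and at least 5 factors occupied 288, 1.59%, against 10.4%. Without the PAX5 lists, 29.9% of LINE regions had at least 2 factors, against 37.4% of the regions of all peaks. With all lists, at least 5 factors occupied 0.709% of L1Md regions and 2.56% of the other LINE regions. L1Md elements made up 50.8% of regions with 1 factor, 67.9% of those with 3 and 32.6% of those with 5, and 1 of the 14 regions with 9 factors.

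On the 11 chromosomes complete in all lists, LINE regions were ranked by number of factors, with ties ordered by mean score percentile. Only peaks annotated on a LINE were counted, so a factor whose peak at the site has another annotation is left out. At the Rgl1 region this left out the IKDN TEAD1, WT ETS1 and WT TEAD1 peaks. The first 10 were all on Lx or older L1 elements. Of the 14 regions with 9 factors, that order left some out, the 1 L1Md region among them. First came an Lx10 element at chr15:54736191-54736748, intergenic and 9.65 kb upstream of Nov, which codes for a matricellular CCN protein. It held all 10 factors, in 15 lists, and had H3K27ac in WT but not in IKDN cells. An L1MC element at chr10:16652499-16652866 also held 10 factors, without H3K27ac in either genotype. An L1M4b element at chr11:5172887-5173251, 20.8 kb upstream of Emid1, held 9 factors with a mean score percentile of 90.9. An Lx8 element at chr15:5262089-5262518, 18.1 kb upstream of Ptger4, the gene of the prostaglandin receptor EP4, held 9 factors and had H3K27ac, H3K4me1 and MED1 in both genotypes. The remaining 6 lay nearest to 4930552P12Rik, Lipg, Rgl1, Capn13, Jade2 and Csnk1g3, each with 9 factors. All 10 regions had H3K4me1 in both genotypes.

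Many pairs of nearby PAX5 peaks on L1Md_F2 and on L1_Mus1 lay 1500 to 1800 bp apart, and fewer on L1Md_T and L1Md_A. Distances were examined after the tallies were known, and this band was chosen after distances were seen. Among pairs of IKDN PAX5 peaks on L1Md_F2 with centres up to 8 kb apart, 144 of 294, 49% (43.1 to 54.8%), lay 1500 to 1800 bp apart. In WT cells 116 of 288 did, 40.3% (34.6 to 46.2%). The share was 67.6% of 34 pairs in IKDN and 78.3% of 46 pairs in WT cells on L1_Mus1. It was 25.7% of 152 and 23.6% of 148 pairs on L1Md_T, and 16.2% of 130 and 16.8% of 155 pairs on L1Md_A. In the top-scored 50% of the peaks the L1Md_F2 share was 18.4% in IKDN and 21.6% in WT cells. Of the 5757 IKDN and 6780 WT PAX5 peaks on L1Md_F2, most were in no such pair.

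Some TEAD1 peaks lay beside PAX5 peaks, and others at a distance from them. On L1Md_F2, 22.1% of IKDN and 13.5% of WT TEAD1 peaks lay within 150 bp of a PAX5 peak on an element of that name. Of the TEAD1 to PAX5 pairs within 8 kb, 76 of 334 in IKDN cells, 22.8%, and 87 of 528 in WT cells, 16.5%, were 1200 to 1400 bp apart. In the top-scored 50% of the lists these shares were 12.5% in IKDN and 18.1% in WT cells. On L1Md_T the share was 9.59% in IKDN and 8.4% in WT cells. On all L1Md elements 33.2% of IKDN and 17.7% of WT TEAD1 peaks lay within 150 bp of a PAX5 peak. On the same elements 87.9% of IKDN LHX2 peaks and 86.9% of WT Ikaros peaks did so. For ETS1 this share was 31.6% in IKDN and 26.3% in WT cells, and for WT E2A 15.5%.

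**Figure D5:**
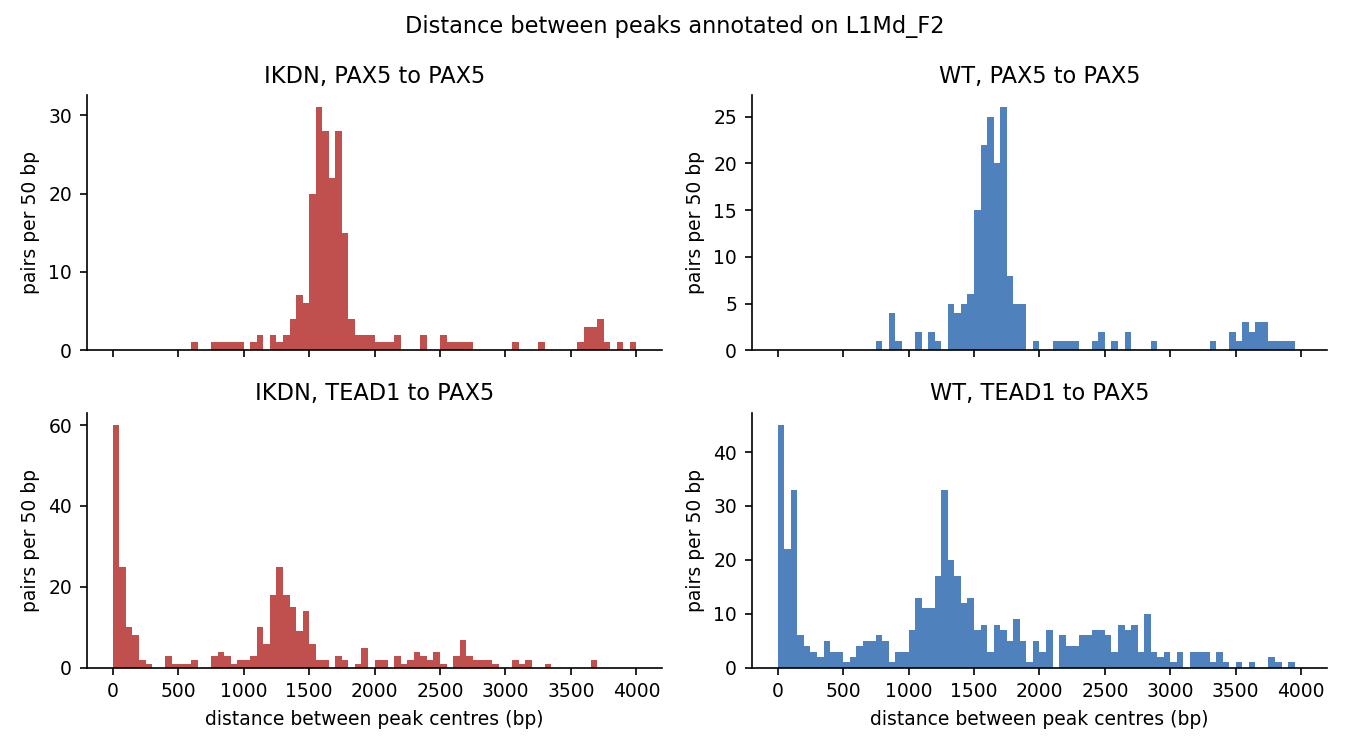
Number of peak pairs by the distance between their centres, in bins of 50 bp up to 4 kb, for pairs on L1Md_F2 elements, with IKDN left and WT right. PAX5 to PAX5 pairs (top) gather at 1500 to 1800 bp, and TEAD1 to PAX5 pairs (bottom) near 0 and at 1200 to 1400 bp.

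Over the autosomes and X the LINE peaks of all lists merged into 39392 regions. 21582 of them were L1Md regions. Counting only peaks annotated on a LINE, 32924 held 1 factor, and 23550 held PAX5 alone. Regions with H3K27ac in IKDN cells only numbered 695, 1.76%, against 7.01% of the regions of all factor peaks. Those with it in WT cells only numbered 686, 1.74%, against 4.93%, and those with it in both 1086, 2.76%, against 19.6%. Among L1Md regions 10 had H3K27ac in IKDN only, 48 in WT only and 11 in both, out of 21582. Lx8 was the most frequent name in both one-sided sets, with 57 regions in each. After it came L2a with 38 and L2 with 37 among those acetylated in IKDN only, and Lx9 with 36 and L1_Mus3 with 25 among those acetylated in WT only.

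The examples with most factors were mostly older elements. Acetylated in IKDN only was an L1M5 element at chr11:32271160-32271512, 3.61 kb upstream of Nprl3, a subunit of the GATOR1 complex, with 9 factors. An Lx7 element at chr17:50574100-50574589, in intron 1 of 5 of NM_013880, with Plcl2 as its nearest gene, had 8 factors, in 7 IKDN lists and in the WT Ikaros and PAX5 lists. In WT only, an L1M3 element at chr7:43392380-43392756, 15.7 kb upstream of Siglecg, an inhibitory B cell lectin, had 9 factors, and an L1MB8 element at chr11:51911529-51911897, 54.2 kb upstream of Jade2, also had 9. The only L1Md element among the 6 WT examples was an L1Md_A at chr1:140877190-140877585 with 8 factors.

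LINE regions were assigned to the nearest gene, often over long distances. Of the 22838 genes nearest to any factor peak, 9401 had at least 1 LINE region, 41.2%. The share was 14 of 28 for B lineage genes and 17 of 30 for integrin and focal adhesion genes. It was 8 of 25 for Hippo pathway genes, of which 23 occur in the peak lists. It was 10 of 20 for stromal fibroblast, 10 of 20 for T cell and 9 of 20 for myeloid genes. The intervals of these small lists, such as 30.6 to 69.4% for B lineage genes, all hold the share over all genes. Peak counts per gene below sum 9 IKDN and 8 WT lists, with LHX2 and LMO2 in IKDN cells only and Ikaros in WT cells only. The incomplete lists are included, so IKDN and WT counts of a gene are not like for like.

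Among B lineage genes Rag2, a subunit of the recombinase that joins antigen receptor genes, had most LINE regions, 41, of which 30 were L1Md, at 122 to 2002 kb from its start. Closer to their gene were the 8 regions of Bank1, a B cell scaffold protein, from 8.16 kb on, and the 7 of Il7r, the receptor for interleukin 7, at 10 to 45 kb. Foxo1 had 4 regions, none of them L1Md, with 8 factors. Those of Bank1 and Il7r were occupied by 9 factors each, in 14 IKDN and 16 WT peaks for Bank1 and 9 IKDN and 12 WT peaks for Il7r.

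Of the adhesion genes, Tns3, which encodes a tensin of focal adhesions, had 18 LINE regions, and Lpp, a zyxin-related protein, had 13, none on L1Md and with 8 factors. Itga1 and Itgb1, integrin chains, had 10 and 7. Among Hippo genes Crim1 had 29 and Stk3, the gene of the kinase MST2, had 14. Tead1 itself had 4 LINE regions, with 5 IKDN and 3 WT peaks.

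Genes of other cell types had such regions too. Col3a1, a fibrillar collagen gene, had 12, of which 10 were L1Md, Twist1 had 9 and Cxcl12, a stromal chemokine gene, had 8. In the T cell list Cd28, a co-stimulatory receptor, had 6 regions with 7 IKDN and 2 WT peaks, and Themis had 5. Ccr2, Itgam and Ly6c2 of the myeloid list had 3 each.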

How the data were processed

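ChIP-seq peaks of 10 factors in IKDN and WT pre-B progenitors were analysed, with 1 library per group. The peak value is a score as deposited by the authors, with no stated scale, and was used within a list only. The repeat annotation and the distance to a transcription start site are, per the file headers, columns of the authors' annotated lists. Tools named, without a role, in the submitters' processing notes are bcl2fastq 1.8.3, BWA, STAR, HOMER, and the builds are mm10 and mm9. 99.3% of 21167 genes whose start was worked out from the distances matched GRCm38.p6 within 1000 bp. Depth is not given in the lists.

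Members were peaks with the class LINE. Shares have exact 95% Clopper-Pearson intervals, and 0 is given with the share that 3 peaks would make. Chromosomes whose peaks ended over 10 Mb short of the other lists counted as incomplete. Overlap meant at least 1 bp. Regions are overlapping peaks merged, and the factors of a LINE region are counted from peaks annotated on a LINE only. Groups came from the labels. Overlap, merging and distance functions were tested on simulated data. The members and lists were chosen with earlier results of these data known. Named items were the 3 most frequent elements per list, the 3 highest and 3 lowest IKDN to WT ratios among names with at least 20 peaks, the 10 regions with most factors, the 2 top-scored LINE peaks per list and up to 4 genes per gene list. The 2 loci read over all lists, the acetylation examples and the distances were chosen after values were seen. Alternatives were the top-scored 50% of peaks, a 2500 bp distance from start sites, other chromosome sets, equal peak numbers, other overlap rules and, added later, lists without PAX5, distal percentiles and stricter distances. Motifs at peak centres were not analysed, since no genome was used, and promoter windows held in RefSeq are shown in their place. Python 3.11.15, pandas 2.3.3 and scipy 1.17.1 were used.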

Additional observations from a re-analysis of the deposited data

Results flagged for a closer look

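Some LINE peaks lay outside the comparisons, on sequences not placed on the 21 chromosomes, in numbers above the 3 that a count of 0 allows. IKDN PAX5 had 60 and WT PAX5 82 of them. IKDN IRF4 had 5, WT TEAD1 6, WT ETS1 5 and WT EBF1 4.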

How the results depend on the processing

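The pooled LINE share of 13.8% became 14.3% in the top-scored 50% of each list, 17.8% at least 2500 bp from a start site and 12.7% on chromosomes complete in all lists. Single lists moved in both directions, WT ETS1 from 12.2% to 4.38% and WT PAX5 from 30.1% to 39.1% in the top-scored 50%. The L1Md share of LINE peaks, 57%, became 49.4% without the PAX5 lists. The share of LINE regions with 2 or more factors, counted by LINE peaks alone, was 18.1%. It became 10.9% in the top-scored 50%, 29.9% without PAX5 and 17.9% with 200 bp windows at peak centres. For the regions of all peaks this share, 33.3%, became 35% in the top-scored 50%, 37.4% without PAX5 and 32.8% with those windows. The PAX5 spacing share on L1Md_F2 became 18.4% in IKDN and 21.6% in WT cells in the top-scored 50%, and the TEAD1 to PAX5 share 12.5% in IKDN cells. The causes were not tested. Over the alternatives run, the LINE share was lower in IKDN for 6 or 7 of the 7 factors, Aiolos being the exception, and LINE peaks were shared less than all peaks in 9 to 11 of 14 lists. H3K27ac was below the share of all peaks in 17 of 17 lists under each alternative. LINE minus all sharing of IKDN peaks turned to -1.92 points for ETS1 with centres within 1000 bp, and in the top-scored 50% to -7.14 for ETS1 and -0.997 for TEAD1, and that of IRF4, -1.3, to 2.81 with 50% of both peaks and 2.5 in the top-scored 50%. No paired analysis was possible because each group has 1 library. Motif alternatives were not run. Small lists, such as Aiolos, have wide intervals.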
